A study of Xenopus laevis with 4 samples.

Results

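The common ETS2 regions on chromosomes 9_10L and 9_10S of the frog Xenopus laevis are described here. Each of these regions overlaps a peak in both chromatin immunoprecipitation (ChIP) libraries, though not always over its whole width. They were taken from the authors' list of common regions by chromosome name alone, without use of any measured value. There were 5925 of them among 61137 in all (9.69%), 3251 on 9_10L and 2674 on 9_10S. Whole embryos were injected with 750 pg of mRNA coding for ETS2 with a triple FLAG tag and collected at stage 11.5, in mid-gastrulation. The 2 ChIP libraries used an antibody against FLAG, and the 2 input libraries used none. All 4 libraries came from injected embryos, so the bound protein was the injected, tagged form and not the embryo's own. Whether separate batches of embryos were used for the libraries is not stated in the labels, so the spread between the libraries may be technical. A precipitation from embryos without the tagged protein was not analysed here. The tissue is the whole embryo, and no cell type can be assigned to a region.

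ETS2 belongs to the ETS family of transcription factors, which bind short DNA motifs through a shared winged helix-turn-helix domain and, in part, respond to growth factor signalling through MAP kinases. Xenopus laevis is allotetraploid and carries an L and an S subgenome, descended from different ancestral species. Its 9_10 chromosomes arose by fusion of ancestors that remain separate, as chromosomes 9 and 10, in the related frog Xenopus tropicalis. The place of the fusion is not given in the files. L and S partners are homoeologous, which means that they descend from the same ancestral chromosome and keep much of its gene order.

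The strength of a region is given by percentiles. The authors' lists hold a value per peak, read as −log10 of a p or q value, which the files do not name. The highest value among the peaks that overlap a region was turned into its percentile within the list of that library, and strength is the mean of the percentiles in both libraries. A strength of 50 is therefore the middle of the lists and 100 their top. Coordinates are those of the files, counted from 1. No source used here names their genome build, and regions were not assigned to genes. Chromosome lengths run to the end of the last peak in any list, 118 Mb for 9_10L and 105 Mb for 9_10S. Read depth is unknown because the files are peak lists, and intervals below cover counting error only. Regions lie in groups, which makes such intervals too narrow.

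Common regions were dense on both chromosomes. There were 27.6 per Mb on 9_10L (exact 95% Poisson interval 26.6 to 28.5) and 25.6 per Mb on 9_10S (24.6 to 26.6). Among the 16 other chromosomes the density ran from 18.7 to 27.4 per Mb, so that none of them exceeded 9_10L and 2 exceeded 9_10S. As a mean of L and S, the pair carried 26.6 regions per Mb against 21.9 ± 2.55 in the 8 other pairs (SD, 8 pairs), or 1.21 times as many. Pair 8 was denser, at 27.2. The difference from the other pairs was not significant (exact permutation p = 0.222 over the 9 pairs, two-sided). A comparison of 1 pair with 8 cannot give a p below 0.111, so it cannot pass a threshold of 0.05.

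Both libraries entered these counts. The peaks of library 1 numbered 3617 on 9_10L and 2963 on 9_10S, which is 30.7 and 28.3 per Mb. Those of library 2 numbered 7829 and 6689, which is 66.4 and 64.0 per Mb. Almost all library 1 peaks overlapped one of library 2, with 97.6% on 9_10L and 97.0% on 9_10S. Of the library 2 peaks 41.6% on 9_10L and 40.1% on 9_10S overlapped one of library 1. These shares ran from 37.0 to 41.4% on the 16 other chromosomes.

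The L chromosome was slightly denser than its S partner. The L to S ratio of regions per Mb was 1.08, with an exact 95% interval of 1.02 to 1.14 from the counts. The mean log2 ratio of the 8 other pairs was 0.11 ± 0.089 (SD) and that of this pair was 0.11, well inside their spread (exact permutation p = 0.889 over the 9 pairs, two-sided). The ratio was 1.08 in the peaks of library 1 and 1.04 (1.01 to 1.07) in those of library 2. For library 2 peaks that met no library 1 peak it was 1.01, with an interval of 0.969 to 1.06 that includes equal densities. The densities behind that last ratio were 38.8 and 38.3 per Mb. Whether the ratio differs between shared and unshared peaks was not tested.

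Neighbouring regions lay close together. The gap between neighbours had a median of 14.3 kb on 9_10L (interquartile range 3.93 to 40.7 kb) and 15.3 kb on 9_10S (4.01 to 44.7 kb). Gaps were uneven, with a standard deviation 1.67 times their mean on both chromosomes. Of the gaps, 943 of 3250 on 9_10L (29.0%) and 773 of 2673 on 9_10S (28.9%) were under 5 kb. These shares were above those of all 16 other chromosomes, which ran from 21.9 to 28.8%. That rank was tied to the cut of 5 kb. Under 2 kb the highest other chromosome had 17%, against 15.8% on 9_10L and 15.3% on 9_10S. Under 20 kb it had 58.8%, against 58.3% and 56.5%. Another chromosome also exceeded both under 1 kb and under 10 kb. As a mean of L and S the share was 29.0% against 25.2% ± 1.53 in the 8 other pairs (SD), whose highest value was 28.2% (exact permutation p = 0.111, two-sided, the smallest this comparison can give). More regions on the same length leave shorter gaps on average, so density and spacing are not separate measures, and the plot shows both together. Chromosomes 8L and 8S were denser than 9_10S, at 27.4 and 27.0 against 25.6 per Mb. Their shares under 5 kb were 28.8% and 27.6%. How far the share follows density was not tested. In the peaks of library 1 alone, 1 other pair had a higher share, at 34.5% against 34.0%.

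**Figure D1:**
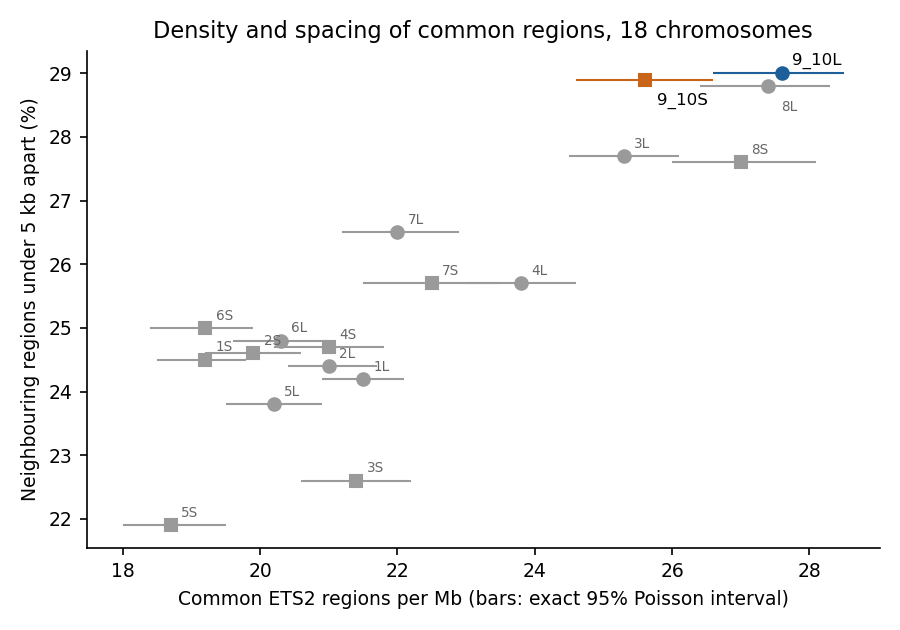
Each point is a chromosome (circles L, squares S), with common regions per Mb on the x axis and the percentage of neighbouring regions under 5 kb apart on the y axis; bars are exact 95% Poisson intervals. Chromosomes 9_10L (27.6 per Mb, 29.0%) and 9_10S (25.6 per Mb, 28.9%) lie at the top, beside 8L.

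At the shortest distances, 314 gaps on 9_10L (9.66%) and 266 on 9_10S (9.95%) were under 1 kb. The smallest gaps were 9 and 15 bp. At the other extreme, 292 gaps on 9_10L and 269 on 9_10S reached 100 kb, and these made up 46.5% and 49.1% of the lengths. On the 16 other chromosomes such gaps took 45.8 to 61.0%. Of the windows of 100 kb, 265 of 1179 on 9_10L (22.5%) and 248 of 1046 on 9_10S (23.7%) held no common region. On the 16 other chromosomes the share of such windows ran from 21.3 to 29.9%, and 15 of them exceeded 9_10L and 13 exceeded 9_10S. Regions were therefore packed into part of each chromosome, with long gaps between, but no more so than on most other chromosomes.

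The longest stretch without a common region on 9_10L ran from 58674502 to 59297983, over 623 kb at 50% of the length. On 9_10S it ran from 35830002 to 36625737, over 796 kb at 34.6% of the length. Neither stretch held a library 1 peak, but library 2 had 5 peaks in the first and 20 in the second. Library 2 peaks stood at 8.02 and 25.1 per Mb there. A stretch without a common region can hold only library 2 peaks that met no library 1 peak, whose density over the whole chromosome was 38.8 and 38.3 per Mb. The longest gap of each chromosome lay at a different relative place. Among the 5 longest gaps of each, the longest of 9_10L faced a gap of 550 kb at 51.9% of 9_10S. Long gaps also lay at 98.3% of 9_10L (488 kb) and 98.1% of 9_10S (734 kb). The rest of the 5 longest lay at 40.9, 63.9 and 84.0% of 9_10L and at 34.6, 55.3 and 81.6% of 9_10S. None of those came within 2% of a gap among the 5 longest of the partner. The share of all positions within 2% of such a gap was not computed. Whether the gaps of the partners match beyond that share was not tested.

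Density changed along both chromosomes in a similar way. In segments of 5% of the length it ran from 13.1 to 51.2 per Mb on 9_10L and from 16.3 to 49.7 per Mb on 9_10S. The first 5% held 46.3 per Mb on 9_10L (95% interval 41.0 to 52.2) and 49.7 per Mb on 9_10S (43.9 to 56.1). The segment from 35 to 40% held 51.2 per Mb (45.6 to 57.4) and 47.4 per Mb (41.7 to 53.7). These were the densest segments on both chromosomes, and between them lay lower stretches. From 80 to 85% there were 13.1 per Mb on 9_10L and 16.8 per Mb on 9_10S, and from 45 to 50% 18.3 and 18.2 per Mb. Across the 20 segments the rank correlation of L and S density was 0.80, given without a p because neighbouring segments are not independent and both chromosomes were read in the same libraries.

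The dense start was not particular to this pair. The first 5% was 1.73 times as dense as the middle 90% on 9_10L and 2.04 times on 9_10S. On the 16 other chromosomes this ratio ran from 0.777 to 2.10, and 4 of them exceeded 9_10L and 1 exceeded 9_10S. The last 5% of 9_10L and 9_10S was less dense than the middle, at 0.915 and 0.909 times.

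**Figure D2:**
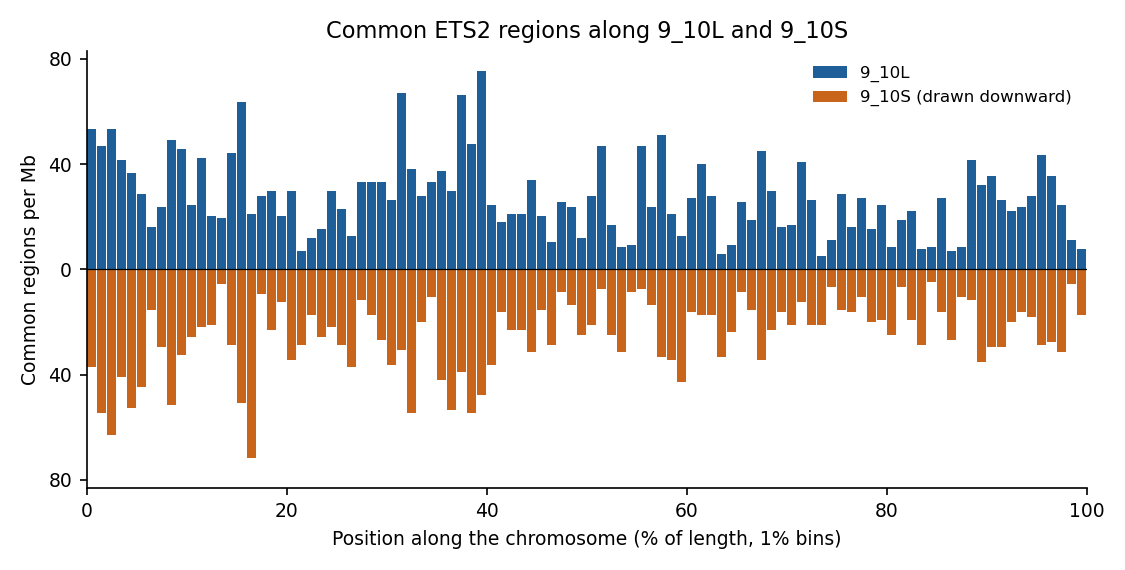
Common ETS2 regions per Mb (y axis) in 1% bins of the length (x axis), for 9_10L upward and 9_10S downward. By segments of 5%, both chromosomes were densest at the start and from 35 to 40%, and sparse between 80 and 85%, where 9_10L held 13.1 and 9_10S 16.8 per Mb.

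Some segments differed between the partners. L was denser in 14 of 20 segments, and the 95% interval of the ratio lay above 1 in 4 of them and below 1 in 1. The largest difference was from 10 to 15%, where 9_10L had 178 regions (30.2 per Mb) and 9_10S 108 (20.7 per Mb), a ratio of 1.46 (1.15 to 1.88). In the segments from 65 to 70% and from 75 to 80% the ratio was 1.38, and from 30 to 35% it was 1.27. From 20 to 25% the order was the other way, with 18.7 per Mb on 9_10L and 25.6 on 9_10S, a ratio of 0.728 (0.561 to 0.944). The 20 intervals were not adjusted for their number. Segments were set at the same share of each length, without the shift described next.

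The profiles of the partners matched best with a small shift. With 100 bins per chromosome, the rank correlation of counts on 9_10L and 9_10S was 0.334 at the same relative position. It was −0.112 when 9_10S was read from its other end. With 9_10S read later by 1% of its length the correlation was 0.552, and it was 0.346 at 2% and 0.146 with 9_10S read earlier by 1%. A shift of 1% was best of all shifts up to 5% in library 1 (0.568), in library 2 (0.580) and in library 2 peaks without a library 1 peak (0.518). It was also best for regions above the median strength (0.510) and for the remainder (0.502). When 9_10L or 9_10S was set against chromosomes of other pairs, with the best shift chosen for each, the 16 correlations ran from 0.061 to 0.241. Partners in the 8 other pairs reached 0.028 to 0.445 at their best shift. These correlations are a description over bins of the same libraries, and the shift was searched for after the data were seen.

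The best shift differed between sections of the chromosome. For each 10% section of 9_10L, the best shift of 9_10S was sought within 2.5% of the length, in bins of 0.5%. The search did not run past the chromosome ends. The first section could therefore take no shift below 0 and the last none above 0, so a value of 0 there is partly set by the search. It was 0 in the first section, 0.5% from 10 to 30% and 1% from 30 to 50%. It reached 1.5% from 50 to 60% and 2% from 60 to 70%, then was 1% from 70 to 90% and 0 in the last section. The correlation at the best shift was highest from 50 to 60%, at 0.77, where it was −0.22 without a shift. It was lowest from 20 to 30%, at 0.36. The same 10 shifts came from library 1 and from library 2, which share most library 1 peaks.

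The steps of this course were set beside those of other chromosomes. The best shift moved by a mean of 0.444% of the length from one section to the next, and the median of the 10 correlations was 0.561. The limits on the first and last section held in every pairing and enter each mean step. For 9_10L against the S chromosomes of the 8 other pairs, the mean step was 1.56 to 2.89% and the median correlation 0.307 to 0.407. Among the partners of the 8 other pairs the mean step ran from 0.5 to 2% and the median correlation from 0.333 to 0.541. In library 2 peaks without a library 1 peak, the 9_10 pair gave a mean step of 0.778% and a median correlation of 0.570. No test was made of these differences.

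**Figure D3:**
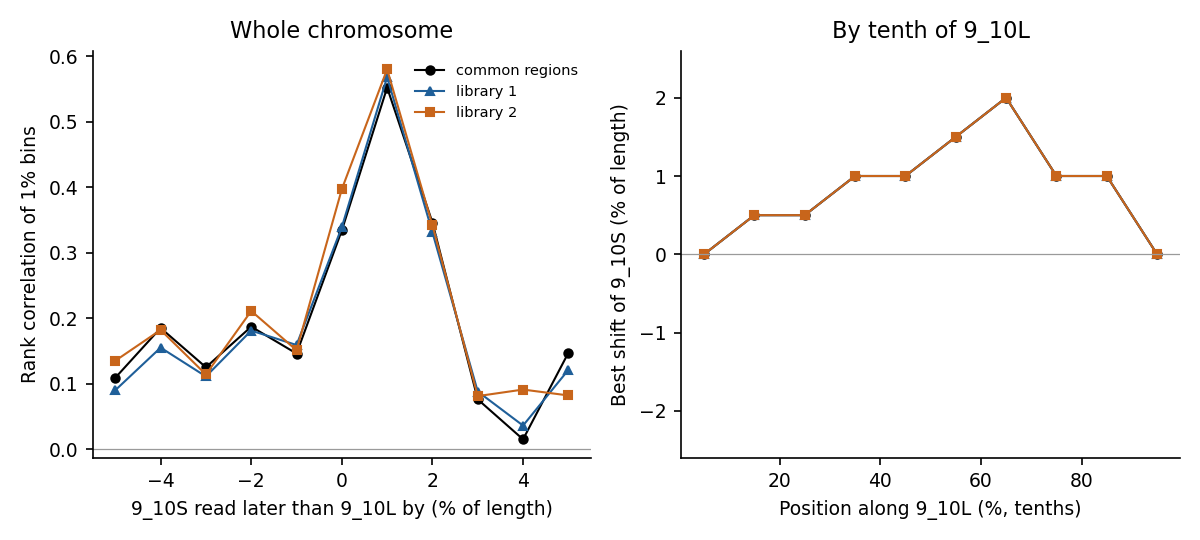
Left, rank correlation of 1% bins of 9_10L and 9_10S (y axis) against the shift of 9_10S in percent of its length (x axis); right, the best shift in each 10% section of 9_10L. Circles are common regions, triangles library 1 and squares library 2, whose points coincide on the right. The left curves reach their highest value at 1%. The right curve goes from 0 up to 2% and ends at 0, where the last section could take no shift above 0.

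Dense windows and stretches were marked out next. A window of 100 kb was called dense with 10 or more regions. There were 37 on 9_10L (3.14% of its windows) with 461 regions, and 32 on 9_10S (3.06%) with 392 regions. They held 14.2% and 14.7% of the regions of each chromosome. On 16 other chromosomes the share of dense windows was 0.805 to 3.33%, and 2 of them exceeded the value of 9_10L and of 9_10S.

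The densest window of 9_10L ran from 68000001 to 68100000, at 57.7% of the length, with 21 regions. It held 23 peaks of library 1 and 37 of library 2, and its regions had a median strength of 66.6 (range 7.87 to 96.8). Strong and weak regions thus lay in the same window. The next on 9_10L started at 79400001 (18 regions, median strength 54.6), at 18100001 (17 regions, 76.8), at 11500001 (16 regions, 55.8) and at 46000001 (15 regions, 64.7).

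On 9_10S the densest window ran from 3100001 to 3200000, at 3.0% of the length, with 23 regions. It held 29 peaks of library 1 and 44 of library 2, and the median strength was 67.6 (15.8 to 98.0). The next started at 62200001 (20 regions, median strength 58.7), at 16700001 (17 regions, 76.3), at 17000001 (16 regions, 53.8) and at 70700001 (15 regions, 55.8). Median strength in these 10 windows lay on both sides of the 66.8 of 9_10L and 66.3 of 9_10S as a whole. The densest windows thus included both stronger and weaker sets of regions.

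Several of these windows had a counterpart on the partner. The window of 9_10L at 57.7% faced that of 9_10S at 59.5%, with 21 and 20 regions. The window at 67.4% of 9_10L, with 18 regions, faced that at 67.6% of 9_10S, with 15. That at 15.4% of 9_10L faced that at 16% of 9_10S, with 17 regions on each and median strengths of 76.8 and 76.3. The densest window of 9_10S, at 3.0%, faced a window of 13 regions at 3.0% of 9_10L. Of the 5 densest windows on each chromosome, all 10 had a dense window of the partner within 2% of the same relative position. So did 66.8% of all windows of 9_10L and 64.4% of those of 9_10S.

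Over all dense windows the excess of such matches was modest. On 9_10L 30 of 37 dense windows (81.1%) had a dense window of 9_10S within 2%, where 66.8% of all windows of 9_10L did. On 9_10S 27 of 32 (84.4%) had one on 9_10L, against 64.4% of all windows. With so many dense windows, a tolerance of 2% covers most of each chromosome, and the count says little by itself. Among windows with 12 or more regions, 12 of 22 on 9_10L (54.5%, against 37.3% of all windows) and 14 of 14 on 9_10S (against 55.9%) had a match.

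Stretches were also traced without fixed windows, as runs of neighbours less than 20 kb apart. There were 33 runs of 10 or more regions on 9_10L, with 457 regions, and 27 on 9_10S, with 377 regions, which is 14.1% of each chromosome's regions. Regions with no neighbour that close numbered 709 on 9_10L (21.8%) and 628 on 9_10S (23.5%). The largest run of 9_10L lay from 67990783 to 68139562, at 57.7%, with 33 regions over 149 kb. Its median gap was 2.84 kb, and its strongest region, at 68094234 to 68095041, had a strength of 96.8. The next lay from 79465427 to 79537754, with 21 regions over 72.3 kb and a median gap of 1.22 kb, and from 5931769 to 6112399, with 20 regions over 181 kb.

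On 9_10S the largest run lay from 16919601 to 17102350, at 16.3%, with 28 regions over 183 kb. Its strength ran from 3.76 to 99.1, with a median of 63.4. The next lay from 3079699 to 3184283, with 26 regions over 105 kb, and from 16659316 to 16763739, with 21 regions over 104 kb. The first and the third of these runs were neighbours on the chromosome. Another, from 62239825 to 62318695, also had 21 regions and faced the largest run of 9_10L.

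**Figure D4:**
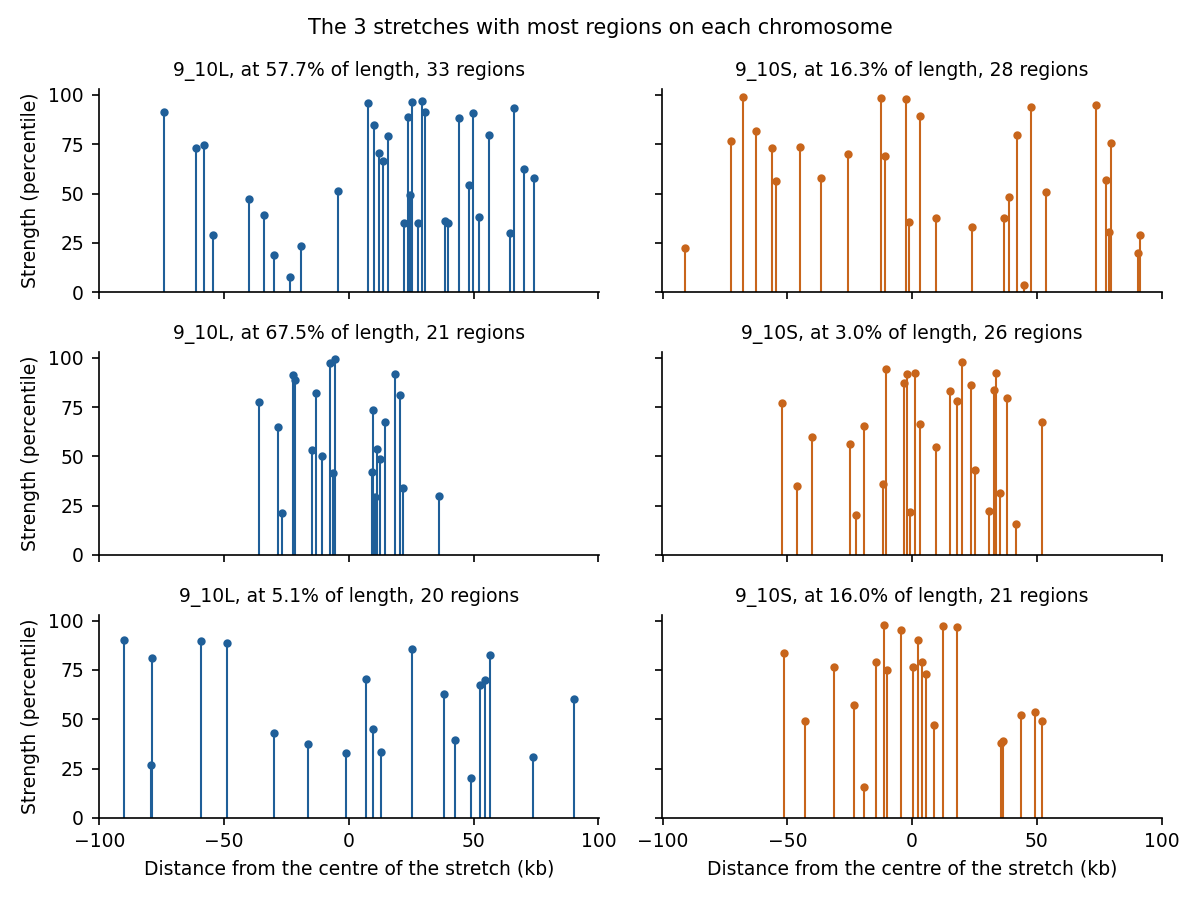
Each dot is a common region, placed by its distance in kb from the centre of its stretch (x axis) at its strength as a percentile (y axis), for the 3 runs with most regions on 9_10L (left) and 9_10S (right). Every run shown held both strong and weak regions. In the largest run of 9_10L, all regions from −54.6 to −4.35 kb had strengths between 7.87 and 51.5.

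Long runs often had a long run at a similar place on the partner. Of the 33 runs on 9_10L, 23 (69.7%) had a run of 9_10S within 1% of the same relative position, where 36.1% of all windows of 9_10L did. The shift found by sections was then applied, interpolated between the section centres. It had been fitted to the counts of these same regions. After this shift it was 20 of 33 (60.6%) against 35.4%, so the shift did not add matches of runs. These shares were taken from the side of 9_10L only, and neighbouring runs could share a partner run. All windows include those without a region. Whether the excess goes beyond the similar course of density along the partners was not tested. When each run had to be the nearest of the other after the shift, and within 1%, 15 pairs were formed. That is 45.5% of the runs on 9_10L and 55.6% of those on 9_10S. No share over all windows was computed for this stricter pairing, so whether 15 exceeds a background was not tested. The pairs included the run at 57.7% of 9_10L (33 regions) with that at 59.5% of 9_10S (21 regions), and that at 3.0% of both (14 and 26 regions). A group of 3 runs between 15.4 and 15.7% of 9_10L was joined to 3 between 15.9 and 16.3% of 9_10S. The second largest run of 9_10L, at 67.5%, stood apart from that of 9_10S at 67.6% after the shift and was not joined.

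**Figure D5:**
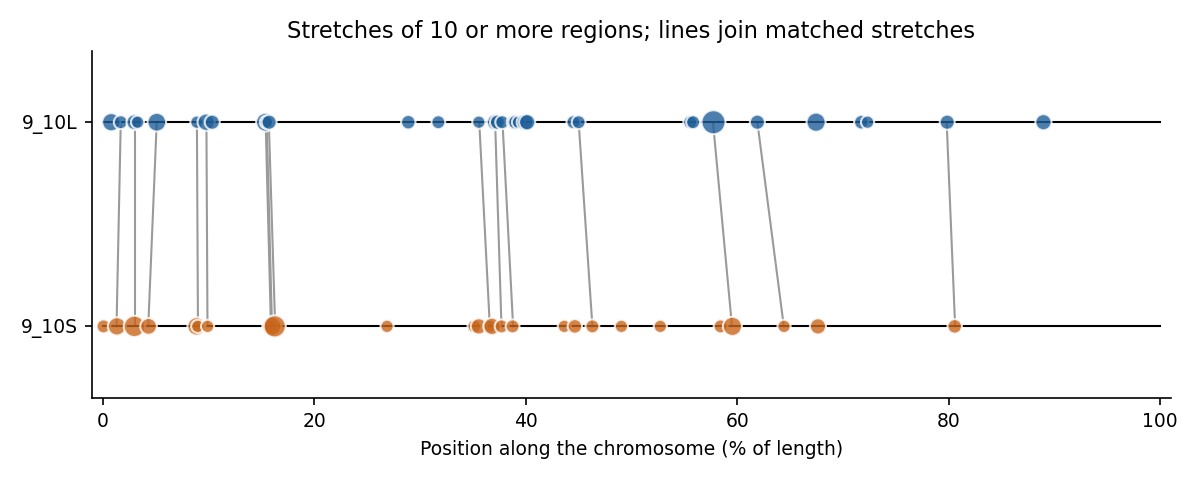
Runs of 10 or more common regions along 9_10L (top) and 9_10S (bottom), by percent of the length (x axis), with dot size following the number of regions; grey lines join the 15 matched pairs. The run with most regions on 9_10L, at 57.7%, is joined to one at 59.5% of 9_10S.

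The contents of the matched runs, which were paired by place after the fitted shift, were compared next. The number of regions in the 15 pairs had a rank correlation of 0.13 between L and S, the span one of 0.31 and the median strength one of 0.11. Median strength differed by at most 10 percentile points in 12 of 15 pairs and by up to 21.8. No such count was made for runs that were not paired, so whether 12 exceeds a background was not tested. The 2 libraries did not give the same picture, with a rank correlation of −0.17 for the percentiles of library 1 and 0.55 for those of library 2. The points share their libraries, and 15 pairs are few.

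Regions were of similar width on both chromosomes. The median was 473 bp on 9_10L (interquartile range 362 to 636) and 461 bp on 9_10S (357 to 634), against 442 to 475 bp on the 16 other chromosomes. The mean of L and S was 467 bp, against 456 ± 9.31 bp in the 8 other pairs (SD; exact permutation p = 0.333, two-sided). Widths ran from 141 to 2269 bp on 9_10L and from 146 to 2204 bp on 9_10S. Regions over 1 kb made up 5.01% and 4.79%, and the share ran from 4.94 to 6.48% on the other 16. In all, the regions covered 1.46% of 9_10L and 1.34% of 9_10S. Library 2 peaks were wider than those of library 1, with medians of 294 against 230 bp on 9_10L and 287 against 231 bp on 9_10S.

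Wider regions were stronger. Regions up to 348 bp had a median strength of 43.3 on 9_10L and 42.9 on 9_10S, and those of 622 bp or more had 83.5 and 84.5. The rank correlation of width and strength was 0.568 on 9_10L and 0.612 on 9_10S. Both come from the same peaks, since a region is as wide as the peaks merged in it. Regions with 2 or more library 1 peaks numbered 252 on 9_10L (7.75%) and 177 on 9_10S (6.62%). The share ran from 6.99 to 8.73% on the 16 other chromosomes, so that 9_10L lay inside their range and 9_10S below it.

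Strength was like that of the other chromosomes. Its median was 66.8 on 9_10L (interquartile range 48.2 to 83.9) and 66.3 on 9_10S (46.7 to 83.5), against 63.9 to 67.6 on the other 16. The mean of L and S was 66.6, against 66.1 ± 0.772 in the 8 other pairs (SD; exact permutation p = 0.556, two-sided). In library 1 the regions had a median peak value of 9.74 on 9_10L (1.37 to 111) and 9.47 on 9_10S (1.37 to 96.1). In library 2 it was 36.3 (1.39 to 265) and 35.6 (1.42 to 262). Since depth is unknown, the size of a value was not compared between the libraries. The difference in strength was within the spread between pairs.

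The libraries ranked the regions in much the same order. The rank correlation of the library 1 and library 2 percentiles was 0.793 on 9_10L and 0.796 on 9_10S, and 0.747 to 0.787 on the other 16 chromosomes. The top 10% of all common regions was also taken by each library, not the top 10% of its list. Of 338 regions of 9_10L in that top 10% by library 1, 242 (71.6%) were in it by library 2. On 9_10S it was 186 of 267 (69.7%), and over all common regions 70.6%. The percentiles differed by over 50 points in 374 regions of 9_10L (11.5%) and 327 of 9_10S (12.2%). Over all common regions they did so in 7619 (12.5%). Library 2 had the higher percentile in all 374, in 326 and in 7591 of these. Percentiles of common regions were higher in library 2 in general, with medians of 80.5 against 55.4 on 9_10L and 80.3 against 54.7 on 9_10S. Its list held 157105 peaks against 69083 in library 1.

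The strongest region of 9_10L lay at 11670975 to 11671734, with peak values of 111 in library 1 and 237 in library 2. It ranked 17th of all 61137 common regions, at a strength of 99.95. It was followed by regions at 105129843 to 105130748 (strength 99.87), 18113162 to 18114130 (99.82), 650117 to 650589 (99.80) and 5307902 to 5308504 (99.77). The third of these lay inside the dense window at 15.4%, which held 17 regions, and its nearest neighbour was 0.172 kb away.

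On 9_10S the strongest region lay at 33550813 to 33551806, with values of 96.1 and 218 and a strength of 99.87, at rank 64 of all. The next were at 7315981 to 7316952 (99.83), 70745662 to 70746676 (99.82), 39843684 to 39844525 (99.81) and 1704490 to 1705139 (99.77). Their surroundings differed widely. The region at 7315981 had its nearest neighbour 49.0 kb away, whereas that at 70745662 lay in a dense window of 15 regions with a neighbour at 0.702 kb. All 10 named regions consisted of 1 peak of each library. Among the 1000 strongest regions of the series, 58 were on 9_10L (5.80%) and 44 on 9_10S (4.40%), close to their 5.32% and 4.37% of all regions.

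Strength was set against the distance to the nearest neighbour. Regions with a neighbour under 5 kb away, 1522 on 9_10L and 1235 on 9_10S, had median strengths of 67.2 and 66.9. Those with none within 50 kb, 219 and 208 in number, had 64.5 and 69.9. The difference was 2.68 on 9_10L and −3.02 on 9_10S, so the partners had opposite signs in this mean of both libraries. Within each library they had the same sign, at 4.68 and 0.504 in library 1 and −1.84 and −2.31 in library 2. On the other chromosomes these differences ran from 2.73 to 11.8 in library 1 and from −1.69 to 3.45 in library 2. The difference between the partners was not tested, and the mean of both libraries was above 0 on 17 of the 18 chromosomes, 9_10S being the exception. Regions in the top 10% of all by strength made up a larger share of close neighbours, at 12.9% on 9_10L and 12.6% on 9_10S. Among regions with none within 50 kb it was 6.39% and 6.25%, and over all regions of each chromosome 10.6% and 10.3%. The same order was found on every other chromosome. Regions with a close neighbour were also wider, by 29 bp on 9_10L and 25.5 bp on 9_10S in the median. On the other chromosomes they were wider by 34 to 85 bp, so the difference was smallest on this pair.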

How the data were processed

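Per the labels, 2 ChIP libraries with a FLAG antibody and 2 inputs were made from embryos injected with mRNA for tagged ETS2. The submitters' processing notes list Bowtie2 2.2.3 and MACS2, with no role or setting, and no source used here names the genome build. The authors deposited 1 peak list per ChIP library, whose value per peak was read as −log10 of a p or q value from its lower limit (1.33 and 1.31). They also deposited the common regions as coordinates without a value. The columns used from that list hold starts and ends.

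Overlap meant at least 1 bp. Gaps run from the end of a region to the start of the next, and windows take regions by midpoint. Pairs were compared by an exact permutation test of pair 9_10 against the 8 others. Named in the text are the 5 strongest regions and the 5 densest windows per chromosome, the 3 largest runs and the longest gap. The run of 9_10S at 59.5%, the further gaps and the matched runs were chosen after their values were seen. The profile shift and the matching of runs were added after the data were seen. Members, lists and tests were chosen with earlier results of these data known. Labels give no pairing of replicates beyond 1 input for each ChIP library. Strength, gaps, the matching of dense windows, the pair test, the Poisson interval and the shift search were tested on simulated data. The tracing and pairing of runs were not. Python 3.11.15, numpy 2.4.6, scipy 1.17.1, pandas 2.3.3 and matplotlib 3.10.9 were used. Genes, motifs and sequences were not analysed here.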

Additional observations from a re-analysis of the deposited data

How the results depend on the processing

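The density, close-neighbour share, width and strength of the 9_10 pair kept their direction against the other pairs in every alternative tried, and no test could pass the threshold. With 1 library left out, the density relative to the other pairs was 1.15 to 1.2, the share under 5 kb 34.0 to 44.3% and the median width 230 to 290 bp. These came from all peaks of the remaining library. Median strength was still taken over the common regions, by the percentiles of 1 library at a time, and was 55.1 to 80.4. The L to S ratio was 1.04 to 1.08 with 1 library left out. At 1.04, in library 2 alone, it lay below the mean of the other pairs instead of above, both by less than their spread.

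The profile correlation of 0.334 was 0.339 to 0.397 with 1 library left out. It was 0.221 for regions above the median strength, 0.481 with 50 bins, 0.200 with 200 bins, and, in alternatives added after the data were seen, 0.552 with 9_10S later by 1% and 0.418 for library 2 peaks without a library 1 peak. The number of matched dense windows of 9_10L, 30 in the common regions, was 45 to 287 with 1 library left out. These were 45 of 55 dense windows in library 1, where 75.1% of all windows had such a match, and 287 of 287 in library 2, where 100% did. It was 1 of 3 above the median strength (12% of all windows), and with another threshold 87 of 91 at 8 or more regions (88.8%) and 12 of 22 at 12 or more (37.3%). Within 1% of the relative position it was 20 of 37 (41.8%), and within 5% it was 36 of 37 (91.9%). With windows shifted by 50 kb it was 24 of 38 (63.2%, against 55.2% of all windows), so the excess on 9_10L depended on where windows began. On 9_10S the shifted windows gave 23 of 26 (88.5%, against 65.2%), where it had been 27 of 32 (84.4%, against 64.4%). Unknown depth limits what can be said of peaks in library 2 alone.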
